A study of Mus musculus with 2 samples.

Results

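Secondary-granule immature neutrophils are described here in gingival CD11b+ cells of mice, from 2 single-cell RNA libraries, 1 for each group. The cells were chosen by measured values: a kept barcode had at least 500 UMIs (unique molecular identifiers, each counting 1 captured RNA molecule), at least 250 genes and at most 10% mitochondrial UMIs. Among kept cells, the chosen ones had at least 3% of UMIs in S100a8 and S100a9, at least 1% in Camp, Ltf and Ngp, under 0.3% in Elane, Mpo, Prtn3 and Ctsg, and at most 3 UMIs of Fn1, Vcan, Ccr2, C1qa, C1qb and Cd79a. They numbered 2742 of 21268 kept cells, of which 1444 came from the 10% Tet2-/- BMT library and the other 1298 from the 10% Tet2+/+ BMT library. These 15 genes therefore differ from other cells by construction, and their levels are given as a description.

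Both groups were recipients of a bone marrow transplant (BMT), of 10% Tet2-/- marrow in one and 10% Tet2+/+ marrow in the other. At 12 weeks after transplantation all of them had ligature-induced periodontitis for 5 days, a model in which a thread tied around a tooth inflames the gum, so neither group was without inflammation. Per the labels' protocol the sort took CD45.2+CD11b+ cells from 10% Tet2-/- BMT mice and CD45+CD11b+ cells from 10% Tet2+/+ BMT mice, whereas the sample titles name CD45.2 for both. The labels name neither the number of animals pooled, their age or sex, nor the rest of the marrow, and with 1 library per group no difference has a replicate check. Genotype, sort gate and library cannot be told apart, so every comparison is of 2 libraries, and intervals (95%, exact Poisson or binomial unless named) cover counting error only.

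Neutrophils load their granules in an order as they mature in bone marrow: primary granules (Mpo, Elane) in promyelocytes, secondary granules (lactoferrin, cathelicidin) in myelocytes and metamyelocytes, then gelatinase granules and finally the surface receptors of circulating cells. The factor C/EBP epsilon is required for secondary granules. Myelocytes still divide, later stages do not, and strong inflammation releases immature forms into blood and tissue. Tet2 is a dioxygenase that oxidises methylated cytosine, and its loss in blood stem cells is a common driver of clonal haematopoiesis.

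The secondary-granule genes lead the cells, so the sequences upstream of the 3 that define them are shown with that of Chil3, the gene outside the rule with the highest ratio to low-granule cells. Each sequence is the 250 bases before the RefSeq start on GRCm38.p6, read 5′ to 3′ on the gene's strand, and capitals mark the C/EBP core TTNNGNAA on either strand. Camp (chr9:109849457-109849706, minus strand) encodes cathelicidin, Ngp (chr9:110419558-110419807, plus) a neutrophilic granule protein, Ltf (chr9:111019042-111019291, plus) lactoferrin and Chil3 (chr3:106167565-106167814, minus) a chitinase-like protein.
Camp: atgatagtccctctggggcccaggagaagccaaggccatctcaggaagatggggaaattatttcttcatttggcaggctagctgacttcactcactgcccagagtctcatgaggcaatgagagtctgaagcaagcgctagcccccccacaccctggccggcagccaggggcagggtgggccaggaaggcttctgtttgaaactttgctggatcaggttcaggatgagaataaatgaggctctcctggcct
Ngp: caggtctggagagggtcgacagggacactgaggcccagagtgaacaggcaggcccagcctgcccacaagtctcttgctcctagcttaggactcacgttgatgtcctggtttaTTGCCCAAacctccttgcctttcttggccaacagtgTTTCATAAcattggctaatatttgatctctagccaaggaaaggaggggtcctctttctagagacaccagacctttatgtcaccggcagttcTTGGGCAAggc
Ltf: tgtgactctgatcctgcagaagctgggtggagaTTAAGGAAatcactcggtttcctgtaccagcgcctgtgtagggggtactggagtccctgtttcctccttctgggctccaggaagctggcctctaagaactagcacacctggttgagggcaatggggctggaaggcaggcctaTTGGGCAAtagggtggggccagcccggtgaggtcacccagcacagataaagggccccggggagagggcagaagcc
Chil3: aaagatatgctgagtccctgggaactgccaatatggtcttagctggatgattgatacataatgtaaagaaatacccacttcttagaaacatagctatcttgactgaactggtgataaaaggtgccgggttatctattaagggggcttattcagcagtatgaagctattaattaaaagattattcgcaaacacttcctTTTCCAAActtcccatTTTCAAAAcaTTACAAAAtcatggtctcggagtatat
Camp held 0 matches, Ngp 3, Ltf 2 and Chil3 3, and the 3 matches of Chil3 are rich in A and T. Matches in Ngp began 138, 102 and 11 bases before the start, and those in Ltf 217 and 75 bases before it. Of the 20 listed secondary-granule genes, 17 had a sequence in the table and 11 of these (64.7%) held at least 1 match, beside 40.3% of 27025 genes with a sequence. A match is a description of letters, not a bound site.

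The 2 libraries held 93919724 and 100782700 UMIs and 9596 and 11672 kept cells (10% Tet2-/- BMT first here and in each pair of values that follows). Secondary-granule cells had a median of 9854 and 11518 UMIs and 1948 and 2081 genes, against 3936 and 4043 UMIs in low-granule cells. Barcodes kept in both libraries numbered 31, and 0 were secondary-granule cells in both. Xist, the transcript of the inactive X chromosome, was found in 865 (59.9%) of the secondary-granule cells from 10% Tet2-/- BMT. In the other library 0 of 1298 held it, which allows a share of up to 0.284%. Y-linked transcripts were found in 76 (5.26%) and 856 (65.9%) of the cells, and 37 cells of the 10% Tet2-/- BMT library held both. Sex-linked transcripts thus divide the libraries as genotype and gate do.

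Free RNA bears on the rule. Barcodes of 1 to 50 UMIs, too few for a cell, carried 13.1% and 13.1% of UMIs in S100a8 and S100a9 and 1.65% and 1.5% in Camp, Ltf and Ngp, above the rule's minimums. Low-granule cells nevertheless had medians of 0.0494% and 0.0642% in Camp, Ltf and Ngp. Cells under 2000 UMIs made up 103 (7.13%) and 104 (8.01%) of the secondary-granule cells and held 0.515% and 0.565% of their UMIs. Their Cd74 level, an antigen-presentation gene of other cell types, was 2643 and 3036 CPM (a gene's UMIs per 1000000 UMIs, both summed over the class), against 172 and 272 CPM in those of 5000 UMIs or more.

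The label was checked against its 5 markers, of which Lcn2 and Cd177 lie outside the rule. Ngp stood at 31505 and 33576 CPM, Camp at 25980 and 34179 CPM and Ltf at 9910 and 9336 CPM. Lcn2, the iron-sequestering lipocalin of secondary granules, was at 14531 and 14793 CPM, against 2562 and 2502 CPM in low-granule cells. Cd177, a surface glycoprotein of neutrophils, reached 772 and 1050 CPM, against 120 and 142 CPM. Camp, Ltf and Ngp are high by the rule, so the check of the label rests on Lcn2 and Cd177, which both stood above low-granule cells in both libraries. Genes of later stages were present too: Retnlg was at 13239 and 13129 CPM against 16049 and 13452 CPM in low-granule cells, and Mmp9, the gelatinase, at 1541 and 1731 CPM against 1494 and 1482 CPM. The check is over all the cells and does not speak for those near the rule's minimum. In cells at 1 to 1.25% in Camp, Ltf and Ngp, Retnlg was at 44487 and 36774 CPM, above low-granule cells. Cd177 was at 639 and 779 CPM in them, against 620 and 686 CPM in cells at 0.75 to 1%. The label was kept for the set as a whole.

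Defining markers of other lineages were low. The macrophage list (C1qa, C1qb, C1qc, Apoe, Mrc1, Adgre1, Cd68) summed to 284 and 221 CPM, beside 9397 and 6877 CPM in the barcodes of 1 to 50 UMIs, with 4 of 7 genes at 10 CPM or more, led by Apoe. The monocyte list summed to 982 and 928 CPM, against 415 and 372 CPM in low-granule cells. Ly6c2 gave 942 and 890 CPM of the sum, while Ccr2, Fn1 and Vcan, which the rule caps, stayed under 10 CPM. Mast cell and basophil genes summed to 0.66 and 0.25 CPM, with 4 and 5 of 7 genes at 0. Eosinophil genes summed to 60.2 and 62.1 CPM, with the defining Epx and Prg3 at 0 in both. Ear2 gave 53 and 49.5 CPM of that sum, against 17.2 and 14 CPM in low-granule cells. B cell genes summed to 83.4 and 73.1 CPM, T cell genes to 27.8 and 21.5 CPM, and NK or innate lymphoid genes to 19.2 and 24.3 CPM. Dendritic cell genes summed to 81 and 116 CPM, nearly all from H2-Ab1, epithelial or gland genes to 52.7 and 36.9 CPM, fibroblast or endothelial genes to 7.38 and 4.49 CPM and platelet genes to 7.02 and 2.75 CPM. Progenitor genes summed to 114 and 84.2 CPM, against 21.5 and 22.2 CPM in low-granule cells and 1653 and 1759 CPM in primary-granule cells. Haemoglobin genes differed most, at 671 and 14.2 CPM, and 1 cell held 84.5% of those UMIs in the 10% Tet2-/- BMT library.

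Secondary-granule cells took a larger share of the 10% Tet2-/- BMT library. They were 15% of kept cells there (95% interval 14.3 to 15.8) and 11.1% (10.6 to 11.7) in the 10% Tet2+/+ BMT library, a difference of 3.93 percentage points (3.02 to 4.85, Newcombe's interval). Among S100a8- and S100a9-rich cells alone, 5693 and 6820 in number, the shares were 25.4% (24.2 to 26.5) and 19% (18.1 to 20). The sort gates differed between the libraries, and a share also moves with the number of all other cells.

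Within the chosen cells the order turned round: the 10% Tet2+/+ BMT library held more of the cells with the largest Camp, Ltf and Ngp share. Camp differed most of the 3, at 25980 and 34179 CPM, while Ngp was at 31505 and 33576 CPM and Ltf at 9910 and 9336 CPM. The Camp, Ltf and Ngp share had a median of 5.62% (quartiles 2.75 and 8.31) and 6.71% (2.96 and 9.9), and a maximum of 16.8% and 33.9%. The maximum of 33.9% was 1 cell, and the next in that library lay under 18.5%. Cells at 10% or more of UMIs were 157 (10.9%, interval 9.31 to 12.6) and 309 (23.8%, 21.5 to 26.2). Cells at 1 to 2% were 239 (16.6%) and 219 (16.9%). The distribution has no gap at the rule's minimum, where 107 and 86 cells lay at 0.75 to 1% and 65 and 79 at 1 to 1.25%. Cells just outside had Lcn2 at 8930 and 6435 CPM and Retnlg at 45268 and 33755 CPM, and cells just inside 8130 and 8725 CPM and 44487 and 36774 CPM.

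**Figure D1:**
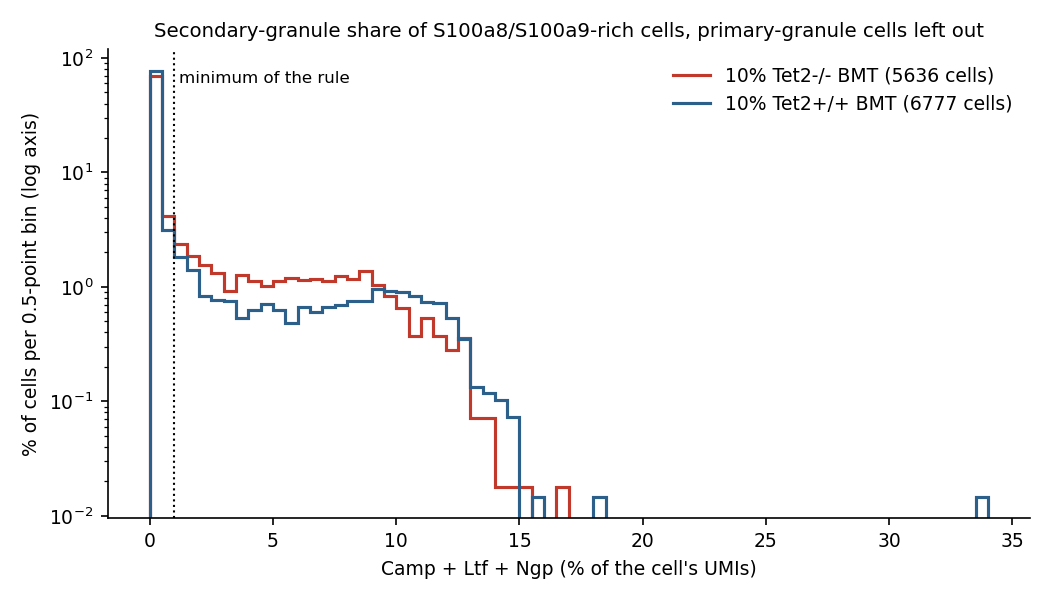
Share of each cell's UMIs in Camp, Ltf and Ngp (x axis, %) against the percentage of S100a8/S100a9-rich cells per 0.5-point bin (log y axis) in the 2 libraries, primary-granule cells left out; the dotted line is the rule's minimum of 1%. The 10% Tet2-/- BMT line lies higher between about 1 and 9%, and the 10% Tet2+/+ BMT line higher above 10%, where it holds 23.8% of its secondary-granule cells against 10.9%.

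The chosen cells lay between 2 neighbours. Primary-granule cells, S100a8- and S100a9-rich with 0.3% or more of UMIs in Elane, Mpo, Prtn3 and Ctsg, numbered 57 and 43, and low-granule cells, under 1% in Camp, Ltf and Ngp, numbered 4192 and 5479. Of 2287 genes, 132 (5.77%) were past 2-fold higher than in low-granule cells in both libraries and 455 (19.9%) past 2-fold lower. Of 2514 genes against primary-granule cells, 445 (17.7%) were past 2-fold higher and 788 (31.3%) lower. The rule used these contrasts, so the counts describe what it separated.

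The 12 genes outside the rule with the highest ratios to low-granule cells were led by Chil3 at 4652 and 4114 CPM against 133 and 85.5 CPM. Fcnb, which encodes ficolin B, was at 394 and 282 CPM against 13.3 and 9.6 CPM, and Serpinb1a, an inhibitor of neutrophil elastase, at 547 and 513 CPM against 35.2 and 27.1 CPM. Orm1, an acute-phase glycoprotein, stood at 156 and 128 CPM (0.753 and 1.37). Chil3, Fcnb, Serpinb1a and Orm1 are on the list of secondary-granule genes. Of 16 eligible genes of that list, 11 were past 2-fold higher and 0 lower. Cebpe, the gene of C/EBP epsilon, was at 315 and 331 CPM, against 26.6 and 29.5 CPM. Cybb, the catalytic subunit of the NADPH oxidase, was at 2124 and 1665 CPM (234 and 187), and Lta4h, which makes leukotriene B4, at 341 and 276 CPM (21.8 and 23.7). The other 5 were genes of dividing cells: Mki67 at 222 and 123 CPM against 9.58 and 5.06 CPM, Top2a at 183 and 107 CPM against 7.21 and 4.14 CPM, Ube2c, Stmn1 and the histone gene Hist1h2ap.

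Of 13 eligible cytokine and chemokine genes, 11 were past 2-fold lower than in low-granule cells and 0 higher. Il1b, the cytokine interleukin 1 beta, stood at 1746 and 1071 CPM against 16501 and 14729 CPM in low-granule cells. The chemokine genes Ccl3, Ccl4, Ccl6 and Cxcl3 were all past 2-fold lower, as were Ptgs2, the inducible cyclooxygenase, and Clec4d, a lectin receptor. Wfdc17 was at 169 and 115 CPM against 1802 and 1899 CPM. Of 21 eligible receptor genes of mature neutrophils, 16 were past 2-fold lower and 0 higher, among them Cxcr2, the chemokine receptor of marrow egress, at 327 and 408 CPM against 1127 and 1389 CPM. Cxcr4, the receptor of marrow retention, was lower too, at 74.1 and 78.5 CPM against 340 and 327 CPM.

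Against primary-granule cells the genes of later stages led. Ly6g, the surface marker of mouse neutrophils, stood at 737 and 733 CPM against 13.2 and 8.86 CPM. Mmp8, the neutrophil collagenase, was at 2330 and 2110 CPM against 63 and 18.7 CPM, and Retnlg, a resistin-like gene of maturing neutrophils, at 13239 and 13129 CPM against 463 and 275 CPM. Mmp9, St3gal5, Plbd1, Ifitm6 and S100a6 were also among the 8 highest. The 8 lowest were Nkg7, Ms4a3, Gstm1, Cst7, Mt1, Nme2, Plac8 and Sdf2l1, with Ms4a3, a gene of granulocyte progenitors, at 61.3 and 39.5 CPM against 1220 and 1341 CPM. The primary-granule class holds 57 and 43 cells, so its levels rest on few cells.

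**Figure D2:**
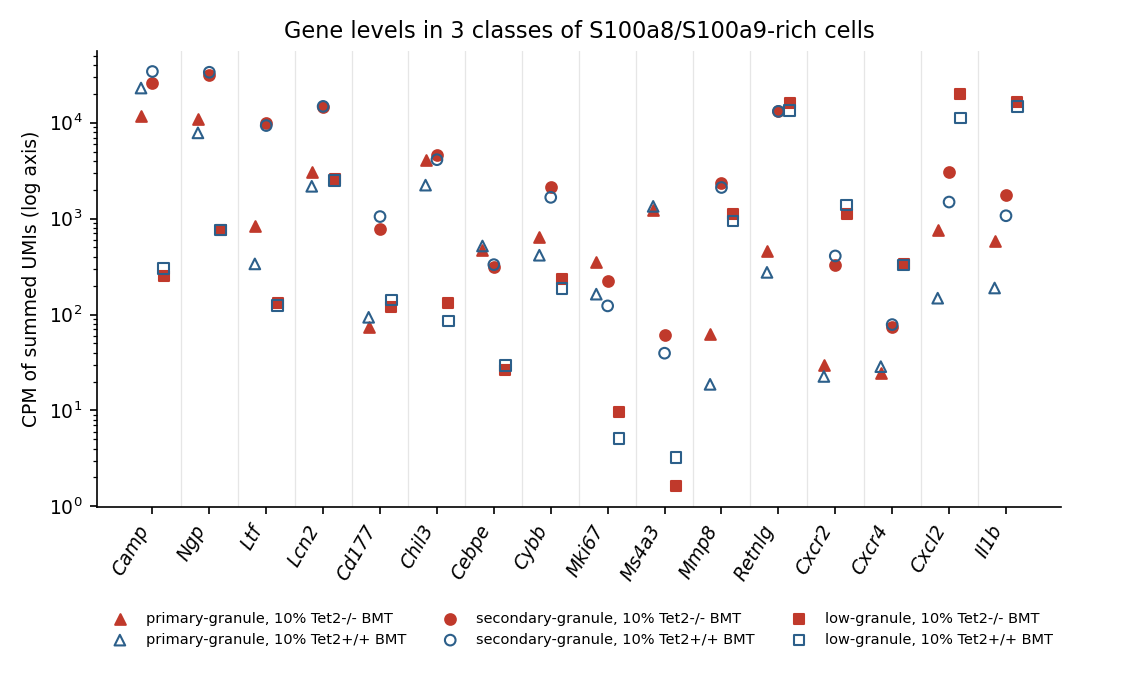
Levels of 16 genes (CPM of summed UMIs, log y axis) in primary-granule (triangles), secondary-granule (circles) and low-granule cells (squares) of the 10% Tet2-/- BMT library (filled, red) and the 10% Tet2+/+ BMT library (open, blue). Cebpe is highest in primary-granule cells (465 and 518 CPM against 315 and 331 CPM in secondary-granule cells) and Chil3 in secondary-granule cells (4652 and 4114 CPM against 4076 and 2233 CPM), both lie lower in low-granule cells, whereas Cxcr2 and Il1b are highest in low-granule cells.

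How the cells varied among themselves was followed over 4 bins of the Camp, Ltf and Ngp share, at 1 to 2%, 2 to 5%, 5 to 10% and 10% or more. The bins use the rule's own measure, so this describes and does not test. Lcn2 was higher in each successive bin, from 9261 to 18489 CPM and from 8941 to 18585 CPM. Chil3 went from 415 to 7742 CPM and from 255 to 7186 CPM, and Cebpe from 80.9 to 482 CPM and from 77.3 to 515 CPM. Cd177 had no such order and stayed between 691 and 815 CPM in one library and between 834 and 1116 CPM in the other. Ribosomal protein genes made up 2.4% of UMIs in the lowest bin and 4.05% in the highest in the 10% Tet2-/- BMT library, and 3.22% and 3.72% in the other.

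Genes of later stages ran the other way. Retnlg went from 42092 to 1403 CPM and from 37720 to 1744 CPM, and Mmp8 from 4377 to 487 CPM and from 3938 to 593 CPM. Cxcr2 went from 777 to 87.9 CPM and from 959 to 124 CPM. Il1b went from 2914 to 503 CPM and from 2130 to 243 CPM. Of the 22 receptor genes of mature neutrophils, 18 were lower in each successive bin in both libraries and 0 higher, beside 14.9% lower and 11.7% higher among 5623 genes at 10 CPM or more. A cell with much Camp, Ltf and Ngp has a smaller share left for all other genes, and its depth differs too, with median UMIs from 6519 to 14704 and from 7647 to 15037 over the bins.

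Cell-cycle genes followed the granule share. All 20 genes of the G2/M list were higher in each successive bin in both libraries, and their sum went from 107 to 2475 CPM and from 48.3 to 1368 CPM. Of 14 S phase genes, 6 were ordered in this way in both libraries, and 10 of 15 proliferation-associated genes. The G2/M UMIs were spread unevenly: the 5% of cells with the most of them held 55.6% and 74.9%, which does not count the dividing cells. Doublets were not removed, and their part was not tested.

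**Figure D3:**
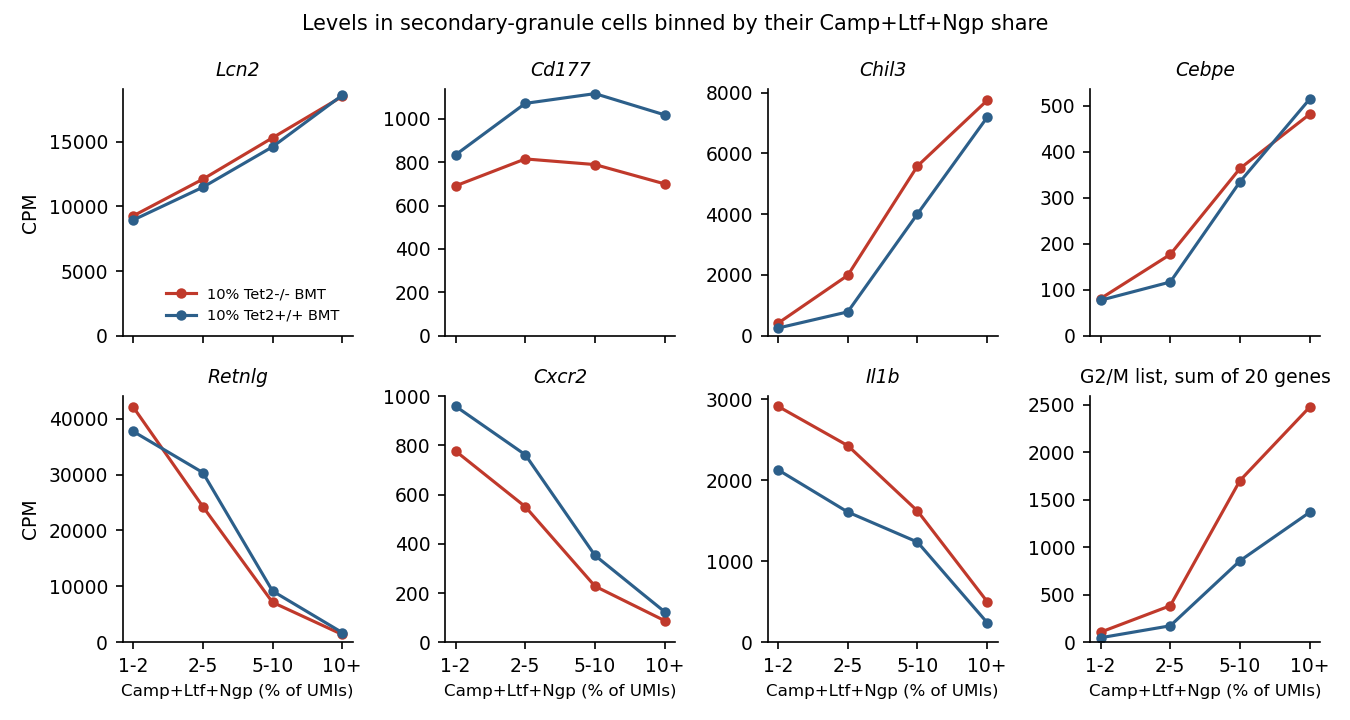
Levels (CPM, y axes from 0) of 7 genes and of the summed 20 G2/M genes in secondary-granule cells binned by their Camp, Ltf and Ngp share (x axis, % of UMIs), with 1 line per library. Lcn2, Chil3, Cebpe and the G2/M sum are higher in each successive bin, Retnlg, Cxcr2 and Il1b lower, and Cd177 neither; the G2/M sum is 2475 and 1368 CPM in the top bin.

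Between the libraries most genes were close. Genes counted as eligible where at least 1 library reached 50 CPM and the UMIs of both came to 100 or more, and were called when past 1.5-fold on the log2 scale with 10 CPM added. Of 1994 eligible genes, 63 (3.16%) were higher in the 10% Tet2-/- BMT library and 14 (0.702%) lower, and the median log2 ratio was 0.12. The split of 63 against 14 depends on the scaling: it became 38 against 16 with TMM scaling and 36 against 16 with median-of-ratios scaling, which bring that median to 0.01 and 0.00. Of the 63 genes 4 were haemoglobin genes and 1 was Xist, and of the 14 genes 1 was Y-linked. In low-granule cells, of the 63 genes 49 were eligible and 23 also higher, and of the 14 genes 11 were eligible and 7 also lower. The share of all genes past 1.5-fold in low-granule cells is not given here, so these counts only describe the overlap. Cxcl2, Acod1 and Cd14 were among the 63 genes, and Mmp25, Olfm4 and Hp among the 14.

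Outside the haemoglobin and sex-linked genes, Asprv1, which encodes an aspartic protease, had the highest ratio, at 103 and 32 CPM (ratio 3.22, interval 2.91 to 3.56). Acod1, which makes itaconate in activated myeloid cells, was at 277 and 105 CPM (2.64, 2.49 to 2.79). Cxcl2, a neutrophil-attracting chemokine, was at 3042 and 1488 CPM (2.04, 2.01 to 2.08), and after thinning each cell to 500 UMIs 49% and 35.3% of cells had a UMI of it, against 90% and 86.4% at full depth. Ifitm1 was at 349 and 150 CPM, and 1 cell gave 6.88% and 6.19% of its UMIs. Slc7a11, the cystine transporter, Pde4b, a phosphodiesterase, and Hcar2, a receptor for hydroxybutyrate and niacin, were at 244, 180 and 82 CPM against 119, 89.9 and 39 CPM. Nr4a1, Nfkbiz, Bcl2l11, Hspa4l and Cd14, the co-receptor for lipopolysaccharide, completed the 12 highest, with log2 ratios of 0.89 to 0.92. In low-granule cells, which shared no cell with these, the 12 genes had log2 ratios from 0.45 (Nr4a1, Pde4b) to 1.44 (Asprv1).

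Ctse, the gene of cathepsin E, had the lowest ratio, at 21.9 and 85.4 CPM, 3.9 times higher in the 10% Tet2+/+ BMT library (interval 3.47 to 4.39). A UMI of it was found in 19.6% and 57.4% of cells, so the difference ran through many cells and not a few. Mmp25, a membrane-bound metalloproteinase of neutrophils, was at 80.4 and 204 CPM (2.53 times, 2.38 to 2.7) and was found in 43.4% and 80.5% of cells. Mmp25 was lower in all 4 bins, with log2 ratios from -1.49 to -1.02, and Ctse from -1.93 to -1.26. In low-granule cells Mmp25 was at 38.7 and 87.9 CPM and Ctse at 33.9 and 64.1 CPM.

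Olfm4, a glycoprotein that marks a subset of secondary-granule neutrophils, was at 56.8 and 146 CPM but was held by few cells. At least 2 UMIs of it were found in 26 (1.8%, interval 1.18 to 2.63) and 54 (4.16%, 3.14 to 5.39) secondary-granule cells. Within those cells the levels lay nearer, at 2465 and 3072 CPM, with a median of 34 and 43 UMIs per cell. The 2 libraries thus differed more in the number of carriers than in the level per carrier. Low-granule cells with at least 2 UMIs of Olfm4 were 35 of 4192 and 84 of 5479, with a median of 3 and 3 UMIs.

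Hp, the gene of haptoglobin, which binds free haemoglobin, was at 1082 and 1815 CPM (1.68 times higher in the 10% Tet2+/+ BMT library, 1.65 to 1.71). Its level was almost the same in low-granule cells, at 1049 and 1808 CPM. Slfn4, an interferon-responsive gene, was at 75.2 and 168 CPM, and Acvrl1, a receptor of the TGF-beta family, at 33.6 and 84.1 CPM. Stfa1, a stefin, was at 52.9 and 120 CPM, and 1 cell held 63.5% of its UMIs in the 10% Tet2-/- BMT library. Without the top cell of each library Stfa1 was at 19.3 and 109 CPM. Gdpd3, Dhrs9, Efhd2, Klf3 and Cd74 completed the 12 lowest, with log2 ratios from -0.96 to -0.61. For Cd74, 1 cell gave 14.3% and 16.4% of the UMIs, and its log2 ratio became -0.10 with a Camp, Ltf and Ngp minimum of 2%. With free RNA subtracted the ratio was 0.00. That setting can subtract too much and cuts off negative levels, so its value for Cd74 may only reflect the floor in both libraries. Other calls ended as well: Gdpd3 became -0.39 in thinned cells, and Efhd2 and Dhrs9 became -0.08 and -0.50 among the Y-carrying cells described next.

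Cells classed by sex-linked transcripts gave another view of these genes. The 10% Tet2-/- BMT library held 828 secondary-granule cells with Xist and no Y-linked UMI and 39 with Y-linked UMIs and no Xist, and the other library held 856 of the latter kind. A single Y-linked UMI can come from free RNA, since in the 10% Tet2-/- BMT library Y-linked genes stood at 21.2 CPM in barcodes of 1 to 50 UMIs and at 8.28 CPM in secondary-granule cells. Of the 39 cells 25 had at least 2 Y-linked UMIs, a stricter class chosen after seeing the data, and of the 37 cells with both kinds of transcript 14 had as many.

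Ctse stood at 14.9 CPM in the Xist cells (12.7 to 17.3), 91.8 CPM in the 39 Y cells of the same library (68.4 to 121) and 84.5 CPM in the Y cells of the other library (79.4 to 90). In the stricter 25 cells it was at 95.4 CPM (66.5 to 133). Klf3 was at 60, 146 and 121 CPM, and at 158 CPM in the 25 cells, so for Ctse and Klf3 the direction between libraries turned in both classes of Y cells. Slfn4, at 64.6, 193 and 168 CPM, turned among the 39 cells but not among the 25, where it was at 139 CPM. Hp was at 1048, 1638 and 1808 CPM. Of the 12 lowest genes, 8 were nearer on the log2 scale to the other library in the 39 Y cells (Acvrl1, Ctse, Dhrs9, Efhd2, Hp, Klf3, Mmp25 and Slfn4) and 4 nearer to the Xist cells of their own library, and in the 25 cells 10 and 2. The 4 genes were Cd74, Gdpd3 at 22.8, 37.8 and 64.8 CPM, Olfm4 at 50.9, 73.8 and 136 CPM, and Stfa1 at 62.9, 70.2 and 91.7 CPM. For Olfm4 the 39 Y cells held 41 UMIs. For Stfa1 1 cell held 560 of the 882 UMIs of the 10% Tet2-/- BMT library, and the Xist cells held 719. That cell was thus an Xist cell and gave most of their Stfa1 level, so the place of Stfa1 among the 4 depends on it.

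Of the 12 highest genes, 12 of 12 were nearer to the Xist cells and 0 turned. Both sets of 12 were picked by the ratio between these same libraries. Nearness was not computed for other genes, so the counts describe the picked genes only. Cxcl2 was at 2576 CPM in the Xist cells, 4695 CPM in the Y cells and 1577 CPM in the Y cells of the other library. Acod1 was at 235, 427 and 115 CPM and Asprv1 at 89.5, 187 and 37 CPM. For Cxcl2, Acod1 and Asprv1 both kinds of cell thus stood above the other library. Cells of the 10% Tet2-/- BMT library with both kinds of transcript were in neither class. Cxcl2 was at 5359 CPM in the 23 of them with 1 Y-linked UMI and 7481 CPM in the 14 with more. Acod1 was at 808 and 626 CPM in them. High Cxcl2 and Acod1 were therefore not particular to Y cells without Xist, whereas Asprv1 was lower in both sets than in those Y cells. The labels do not say whether sex marks donor, recipient or co-transplanted marrow, 39 cells are few, and the part of cell origin or free RNA in these differences was not tested.

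**Figure D4:**
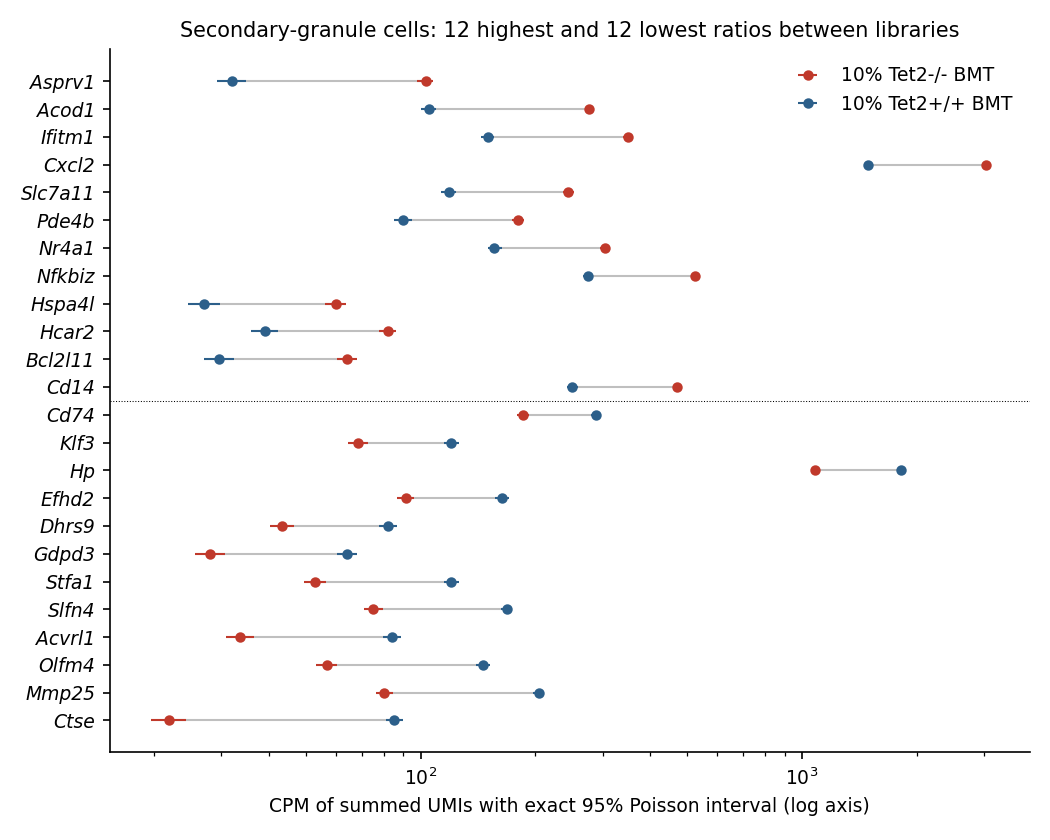
Levels of the 12 genes with the highest and the 12 with the lowest ratios between libraries in secondary-granule cells (CPM, log x axis), 1 point per library with its exact 95% Poisson interval, which covers counting error only. Above the dotted line the 10% Tet2-/- BMT point is higher, as for Cxcl2 at 3042 against 1488 CPM, and below it lower, as for Mmp25 at 80.4 against 204 CPM.

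Most genes of the secondary-granule list were close between libraries. For lists, the call was taken over all genes at 10 CPM or more, of which 1.62% were higher in the 10% Tet2-/- BMT library and 0.516% lower. Of 16 measured secondary-granule genes outside the rule, 0 were higher and 2 lower (Olfm4 and Hp), with a median log2 ratio of -0.02. Lcn2 differed by a ratio of 0.982 (0.977 to 0.988), Chil3 by 1.13 (1.12 to 1.14), and Cd177 was 1.36 times higher (1.33 to 1.39) in the 10% Tet2+/+ BMT library. A UMI of Cd177 was found in 28.3% and 42.1% of cells thinned to 500 UMIs, and in 88.9% and 95.1% at full depth. Of 15 tertiary granule and secretory genes, 1 was lower (Mmp25), with a median of 0.06 that became -0.05 with TMM and -0.06 with median-of-ratios scaling, and Mmp9 was at 1541 and 1731 CPM.

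Transcription factors of the granulocyte line showed no call. Of 22 measured, 0 passed 1.5-fold, with a median log2 ratio of 0.07. Spi1, the gene of PU.1, was at 477 and 447 CPM, Cebpb, the C/EBP of emergency granulopoiesis, at 1323 and 1147 CPM, and Cebpd at 275 and 295 CPM. Tet2 itself was at 54.2 and 35.1 CPM (ratio 1.54, 1.39 to 1.72). The assay reads the 3′ end and the labels do not say which part of the gene was removed, so its transcript does not check the genotype.

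Part of the cell-cycle genes passed 1.5-fold, each of them higher in the 10% Tet2-/- BMT library. All 20 measured G2/M genes had a log2 ratio above 0. That alone was common, since the median over all genes at 10 CPM or more was 0.0958. Of the 20 genes 8 were past 1.5-fold, and their list had a median of 0.57 against 0.03 in low-granule cells. The 2 medians are not alike in kind, since many of these genes lay near the floor in low-granule cells. Mki67 was at 9.58 and 5.06 CPM there and Cenpf at 1.45 and 1.57 CPM, and the 10 CPM added shrinks such ratios. Mki67, a marker of dividing cells, was at 222 and 123 CPM (1.81, 1.71 to 1.91), Top2a, a topoisomerase, at 183 and 107 CPM, and Cenpf, a kinetochore protein gene, at 85.9 and 44.6 CPM. Of 14 S phase genes 0 passed 1.5-fold, with a median of 0.31, and of 15 proliferation-associated genes 2 were higher, the tubulin genes Tubb5 and Tuba1b, with a median of 0.45. Without the 8% of cells with the most UMIs in each library, left out in place of a doublet caller, the G2/M median was 1.12. The difference stood in every bin of the granule share, with G2/M medians of 0.24, 0.57, 0.78 and 0.73, although the top bin was larger in the other library. After thinning, 17.5% (15.5 to 19.5) and 10.6% (9.01 to 12.4) of secondary-granule cells had a G2/M UMI, against 42.6% and 36.2% at full depth and 3.79% and 3.14% in thinned low-granule cells. Among the 39 cells of the 10% Tet2-/- BMT library with Y-linked UMIs and no Xist, compared with the 856 such cells in the 10% Tet2+/+ BMT library, the direction turned, with a G2/M median of -0.27 (-0.35 for the 25 cells with at least 2 Y-linked UMIs) and Mki67 at 108 against 124 CPM. Among the 828 Xist-carrying cells it was 0.98 and Mki67 stood at 299 CPM (289 to 310). The part of cell origin in this result was not tested.

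Some inflammatory genes passed 1.5-fold as well. Of 15 measured cytokine and chemokine genes 6 were higher and 1 lower, with a median log2 ratio of 0.47 against 0.41 in low-granule cells. From the lowest to the highest bin of the granule share the medians were 0.00, 0.59, 0.39 and 0.68. The summed levels of the 15 genes were 10860 and 6949 CPM in the lowest bin and 1945 and 924 CPM in the highest. The median of 0.00 in the lowest bin therefore does not mean equal levels there. With every cell weighted equally, as the mean of single-cell CPM, the median was 0.21. Il1b was at 1746 and 1071 CPM (1.63, 1.6 to 1.66), a log2 ratio of 0.70. That ratio ranged from 0.38 in thinned cells to 1.53 with free RNA subtracted, a setting that can subtract too much. Tnf, the gene of tumour necrosis factor, was at 75.1 and 39.6 CPM (1.9, 1.72 to 2.09). Ccl6 was at 292 and 160 CPM. The 1 lower gene, named after its value was seen, was Ccl5, at 5.34 and 28.6 CPM, where 1 cell held 46.7% of the UMIs of the 10% Tet2+/+ BMT library. Without the top cell of each library Ccl5 was at 4.75 and 15.2 CPM. Il6 was at 0.48 and 0.0624 CPM, with UMIs in 0.485% and 0.077% of cells.

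The feedback genes of the NF-kB pathway showed 6 of 17 higher and 0 lower, with a median of 0.44 (low-granule 0.33). Nfkbiz, an atypical inhibitor of NF-kB, was at 524 and 274 CPM, Nfkbia, the classical inhibitor, at 828 and 530 CPM, and Tnfaip3, which encodes A20, at 94.1 and 56.4 CPM. Tissue activation genes were higher in 9 of 23, with a median of 0.51 (low-granule 0.57, and 0.26 as the mean of single-cell CPM), and immediate early genes in 5 of 17 (Nr4a1, Egr1, Fosb, Btg2 and Jund), with a median of 0.41 (0.30). Egr1 was at 231 and 134 CPM and Btg2, an antiproliferative gene, at 818 and 520 CPM. Fosb turned to a log2 ratio of -0.20 when cells were thinned to 500 UMIs. These lists share genes, such as Cxcl2, Ptgs2 and Ier3.

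Few interferon-stimulated genes passed 1.5-fold. Of 17 measured, 0 were higher and 2 lower, with a median of -0.16 against -0.38 in low-granule cells. The median was -0.32 for Xist-carrying against Y-carrying cells and turned to 0.33 among the Y-carrying cells of both libraries, where Slfn1 was 0.28 and Ifi27l2a 0.58. The 2 lower genes were Slfn4 and Oasl2, the latter at 11.2 and 25 CPM. Slfn1 was at 118 and 161 CPM and Ifi27l2a at 107 and 152 CPM, whereas Isg15, a ubiquitin-like modifier, was at 67.4 and 54.2 CPM, a log2 ratio of 0.27 that ranged from -0.32 in thinned cells to 1.84 among Y-carrying cells. Receptor genes of mature neutrophils had 1 of 22 higher (Cd14) and 0 lower, with a median of 0.14 that turned to -0.02 when both libraries were given the same mix of bins. Iron-handling genes had 1 of 8 higher, the ferritin heavy chain Fth1 at 4272 and 2778 CPM, and 1 lower, Hp. Among 13 apoptosis and survival genes 1 was higher, the pro-apoptotic Bcl2l11 at 64.1 and 29.6 CPM. Heat shock, NADPH oxidase, glycolysis, oxidative phosphorylation, S100 and annexin, and secretory pathway lists had 0 calls in either direction, with medians between -0.01 and 0.12, and those of the NADPH oxidase and glycolysis lists turned to -0.04 and -0.01 with TMM scaling. So had 6 primary-granule genes (median 0.18), 8 genes of marrow retention and homing (0.06) and 7 of DNA methylation and demethylation (0.17). Of 6 matrix metalloproteinase and inhibitor genes 1 was lower, Mmp25, with a median of 0.02. Of 8 measured stefin A genes, a family of cysteine protease inhibitors, 2 were higher (Stfa2l1 at 322 and 174 CPM, and Cstdc5) and 1 lower (Stfa1), with a median of 0.22 that turned to -0.35 in cells with at most 1 UMI of the capped other-lineage genes.

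**Figure D5:**
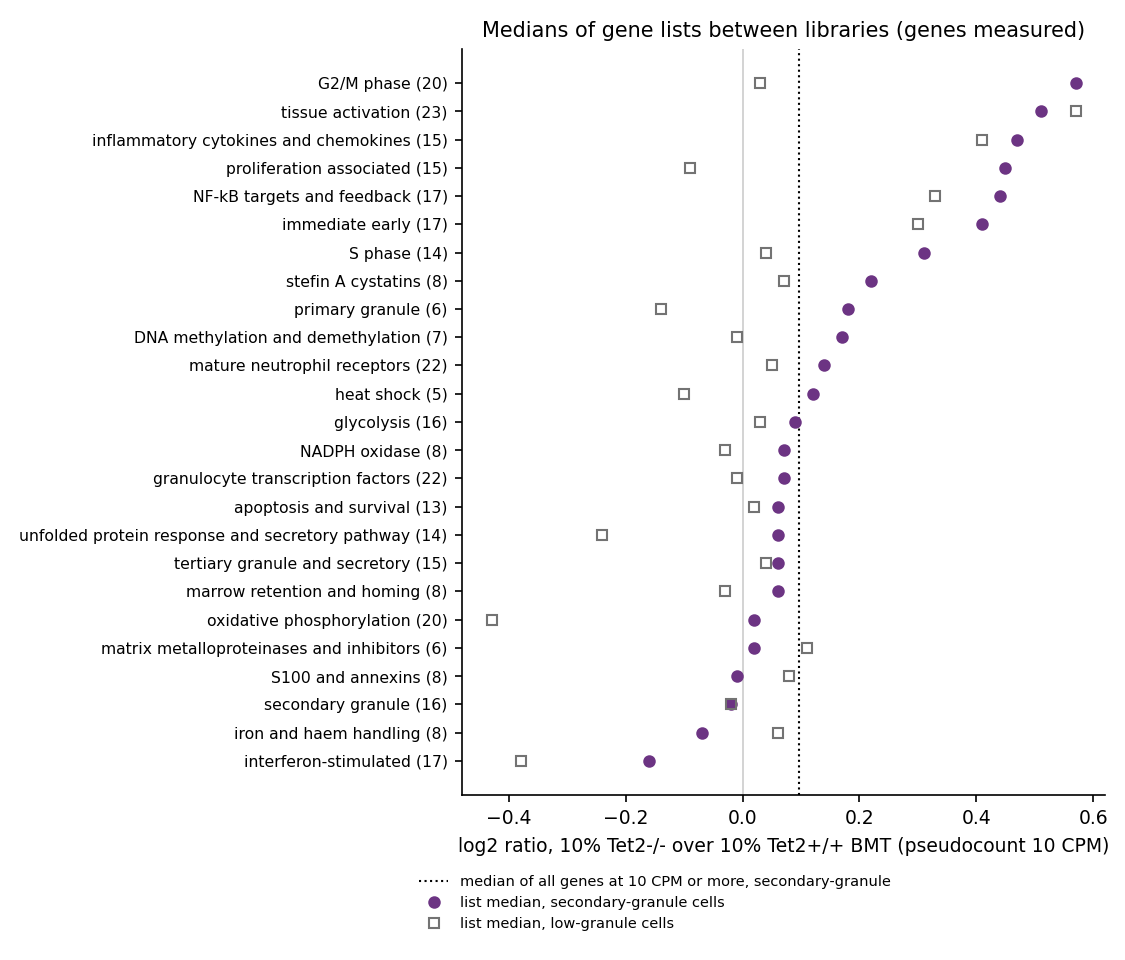
Median log2 ratio of 10% Tet2-/- over 10% Tet2+/+ BMT for 25 gene lists in secondary-granule (filled) and low-granule cells (open), with the number of genes measured in brackets; the dotted line is the median of all genes at 10 CPM or more in secondary-granule cells. The G2/M and proliferation lists lie far from their low-granule medians (0.57 against 0.03 for G2/M), while the tissue activation, cytokine, NF-kB and immediate early lists are high in both. Many G2/M genes lie near the floor in low-granule cells, where the 10 CPM added shrinks their ratios.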

How the data were processed

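Single-cell RNA libraries were made from sorted gingival cells with the Chromium 3′ v3.1 kit, with about 20000 cells loaded, per the labels' protocols. The deposited matrices hold UMI counts per gene and barcode for 32285 genes and were not filtered for cells. Per the submitters' processing notes the authors used Cell Ranger 6.1.2 and mm10, whereas the matrix header names Cell Ranger 4. Other steps are not given in the sources used here.

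Barcodes were kept and classed by the shares given at the start of the report. For each class of each library, UMIs were added up over its cells and scaled to CPM. Ratios between classes or libraries are on the log2 scale with a pseudocount of 10 CPM, and their intervals are exact, from the counts. With 1 library per group no test across samples exists and no p-value was computed. A gene was eligible at 50 CPM and 100 UMIs, and called at 1.5-fold between libraries or 2-fold between classes. The 25 gene lists were read over genes at 10 CPM or more, and 15 marker lists as sums, of which the mature neutrophil sum is not reported here. The ratio code was tested on simulated data. Shares of cells with a UMI were also taken after thinning to 500 UMIs, with 0 cells too shallow for this. No doublet caller was run, and an alternative leaves out the 8% of cells with the most UMIs. Another alternative subtracts free RNA, estimated from Igkc and Ighm at 9.71% and 9.84% of UMIs in secondary-granule cells. That estimate rests mainly on Ighm, at 59.2 and 43 CPM there against 165 and 216 CPM in the barcodes of 1 to 50 UMIs. Igkc was at 18.4 and 20.8 CPM against 635 and 432 CPM, and Apoe at 226 and 163 CPM against 7035 and 4982 CPM. Those proportions are lower, so this alternative can subtract too much.

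Named genes were the 12 highest and 12 lowest between libraries, the 12 highest and 12 lowest against low-granule cells in both libraries, the 8 highest and 8 lowest against primary-granule cells, the markers, Tet2, Il1b, Il6 and Tnf, and up to 4 per list. Ribosomal, mitochondrial, haemoglobin, immunoglobulin, T cell receptor, sex-linked and unnamed gene models were left out of the ranking. The cells, lists and tests were chosen with earlier results of these data known. Promoter sequences are from RefSeq on GRCm38.p6. Python 3.11.15, numpy 2.4.6, scipy 1.17.1, pandas 2.3.3 and matplotlib 3.10.9 were used.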

Additional observations from a re-analysis of the deposited data

Results flagged for a closer look

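Cstdc5, a stefin A gene, had opposite directions between the libraries in neighbouring cell classes. Its log2 ratio (10% Tet2-/- over 10% Tet2+/+ BMT) was 0.84 in secondary-granule cells and -1.12 in low-granule cells, and the difference between the classes was not tested. In secondary-granule cells it was at 74.9 and 37.6 CPM, and 1 cell held 583 of 1249 UMIs in the 10% Tet2-/- BMT library. Cells with at least 2 UMIs of it were 18 (1.25%) and 36 (2.77%), so carriers were more frequent in the library with the lower level. Without the top cell of each library the levels were 40 and 32.4 CPM.

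The haemoglobin genes Hbb-bs and Hba-a1 had the same pattern, also not tested as a difference. Their log2 ratios were 4.15 and 3.79 in secondary-granule cells and -2.02 and -1.50 in low-granule cells. Here too a cell decided each level. In the 10% Tet2-/- BMT library 1 secondary-granule cell held 4640 of 5285 Hbb-bs UMIs and 2082 of 2584 Hba-a1 UMIs, and in the 10% Tet2+/+ BMT library 1 low-granule cell held 3909 of 4549 and 1051 of 1318. Without the top cell of each library Hbb-bs was at 38.8 and 7.87 CPM in secondary-granule cells and 36.9 and 25.7 CPM in low-granule cells.

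Barcodes with 1 to 50 UMIs, which no comparison between classes used, held Camp, Ltf and Ngp at 1.65% (10% Tet2-/- BMT) and 1.5% (10% Tet2+/+ BMT) of UMIs. Both are above the minimum of 1% by which secondary-granule cells were chosen.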

How the results depend on the processing

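No paired analysis was possible because each group has 1 library, and no replicate could be left out. A minimum of 2000 UMIs and the class with at least 2 Y-linked UMIs and no Xist were added after seeing the data. The difference in share (3.93 percentage points) stayed between 3.31 and 4.72 in all settings run. The 77 genes past 1.5-fold between libraries became 120 (91 higher, 29 lower) when genes were eligible at 10 CPM, 134 (115 and 19) for 828 Xist-carrying against 856 Y-carrying cells, with 50 of the 77 shared, 168 (138 and 30) for Y-carrying cells of both libraries, with 42 shared, and 227 (173 and 54) for the 25 cells with at least 2 Y-linked UMIs, with 41 shared. In the other settings they stayed between 52 (median-of-ratios scaling) and 98. The 587 genes past 2-fold against low-granule cells stayed between 497 and 855.

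Over all settings, 1790 log2 ratios of single genes stayed within their counting interval, 960 moved further and 22, of genes past 1.5-fold, turned sign, and of list medians 412 stayed within it, 94 moved and 19 that lay beyond it turned. With at most 1 other-lineage UMI Cstdc5 was -1.19 and the stefin median -0.35, and in thinned cells Fosb was -0.20. The tertiary granule, NADPH oxidase and glycolysis medians were -0.05, -0.04 and -0.01 with TMM scaling and -0.06, -0.05 and -0.02 with median-of-ratios scaling. The mature receptor median was -0.02 with the same mix of bins and -0.05 for Xist-carrying against Y-carrying cells, where the tertiary granule median was -0.06. Among Y-carrying cells (39 against 856) Ctse was 0.11, Klf3 0.25, Slfn4 0.19, Cenpf -0.22, Cstdc5 -1.97, Mki67 -0.18, Top2a -0.79, Tuba1b -0.30, Tubb5 -0.19 and Ube2c -0.33. The S phase, G2/M, proliferation and stefin medians there were -0.37, -0.27, -0.14 and -0.10. For the 25 cells Ctse was 0.16, Klf3 0.36, Efhd2 0.10, Cenpf -0.18, Cstdc5 -2.41, Mki67 -0.38, Top2a -1.37, Tuba1b -0.53, Tubb5 -0.44 and Ube2c -0.41, and the S phase, G2/M, proliferation, stefin and glycolysis medians were -0.28, -0.35, -0.22, -0.27 and -0.05. The cause of these turns was not tested. Depth limits Il6, found in 0.485% and 0.077% of cells.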
